A study of Mus musculus with 5 samples.

Results

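Receptors for the growth factors of myeloid cells were examined as possible sites of c-Maf antibody signal in mouse macrophage chromatin. The receptors were 7 genes taken by name, Csf1r, Csf2ra, Csf2rb, Csf2rb2, Csf3r, Flt3 and Kit, of 21887 protein-coding genes in RefSeq annotation of the mouse assembly GRCm38.p6, whose coordinates are those of mm10. Each gene span was widened by 50 kb on both sides, and every peak in that window was taken from each of 4 peak lists. The chromatin came from C57Bl/6 mice, from cells whose source label reads in vitro polarized M2 BMM, an abbreviation commonly used for macrophages grown from bone marrow. The sample titles carry M0 instead, so the polarization state rests on the source and cell type labels. Chromatin immunoprecipitation followed by sequencing was done with an antibody to c-Maf (2 libraries, c-Maf_Ab numbers 3 and 4) or with normal rabbit IgG as isotype control (2 libraries, Iso numbers 3 and 4), and 1 input library (number 4) served as control for every peak list. By their labels, the antibody groups share strain, cell type and fixation and differ in the antibody alone. Numbers 3 and 4 are described as biological replicates in the series' design, but no label names an animal or a culture, so the spread between them may be technical.

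CSF1R, KIT and FLT3 are receptor tyrosine kinases of one structural class, which pair up when their ligand binds and then phosphorylate each other. CSF1R carries the survival and growth signal of macrophages, KIT that of blood stem cells and mast cells, and FLT3 that of early progenitors and dendritic cells. The other genes encode cytokine receptor chains that signal through attached Janus kinases: CSF2RA binds GM-CSF, CSF2RB is the beta chain shared by the GM-CSF, IL-3 and IL-5 receptors, CSF2RB2 is a second beta chain of the mouse that serves IL-3, and CSF3R is the G-CSF receptor of neutrophils. c-Maf is a basic leucine zipper transcription factor expressed in several macrophage types, and binds Maf recognition elements built from the half-site TGCTGA. A conserved enhancer in the second intron of mouse Csf1r, named FIRE, is known to take part in its transcription in some macrophages. FIRE lies a short way downstream of the macrophage start sites.

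Depth was nearly equal, with 21655683 to 22017759 filtered tags per antibody library, and the highest was 1.017 times the lowest. The c-Maf_Ab lists held 23434 (number 3) and 17620 (number 4) peaks, and the Iso lists 58732 and 15568. A peak's height is given here as tags at its summit, which is the authors' pileup divided by their scaling of the library to the input. Intervals are exact 95% Poisson intervals that cover counting error only. The fold enrichment is the authors' ratio of the pileup to the local input after a tag is added to each. This makes it smaller than the plain ratio of the pileup to the local input. The median peak had 6 tags in both c-Maf_Ab lists, and 4 (number 3) and 5 (number 4) tags in the Iso lists, so a single weak peak has a wide counting interval.

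Csf1r was the member with c-Maf_Ab peaks of both libraries at the same places and without isotype peaks. It lies on chromosome 18 at 61105572 to 61131139 (mm10 throughout). Its window held 2 peaks of c-Maf_Ab number 3 and 4 of c-Maf_Ab number 4, against 0 of Iso number 3 and 0 of Iso number 4. Of these 6 peaks 5 lay inside the gene. The nearest isotype peak was 52.8 kb from the gene in number 3, just outside the window, and 253.7 kb away in number 4. Of all protein-coding genes, 10.2% had no isotype peak within 50 kb, and 0.064% (14 genes) had at least 6 c-Maf_Ab peaks and no isotype peak there. The second of these counts was set by the value at Csf1r after it was seen.

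**Figure D1:**
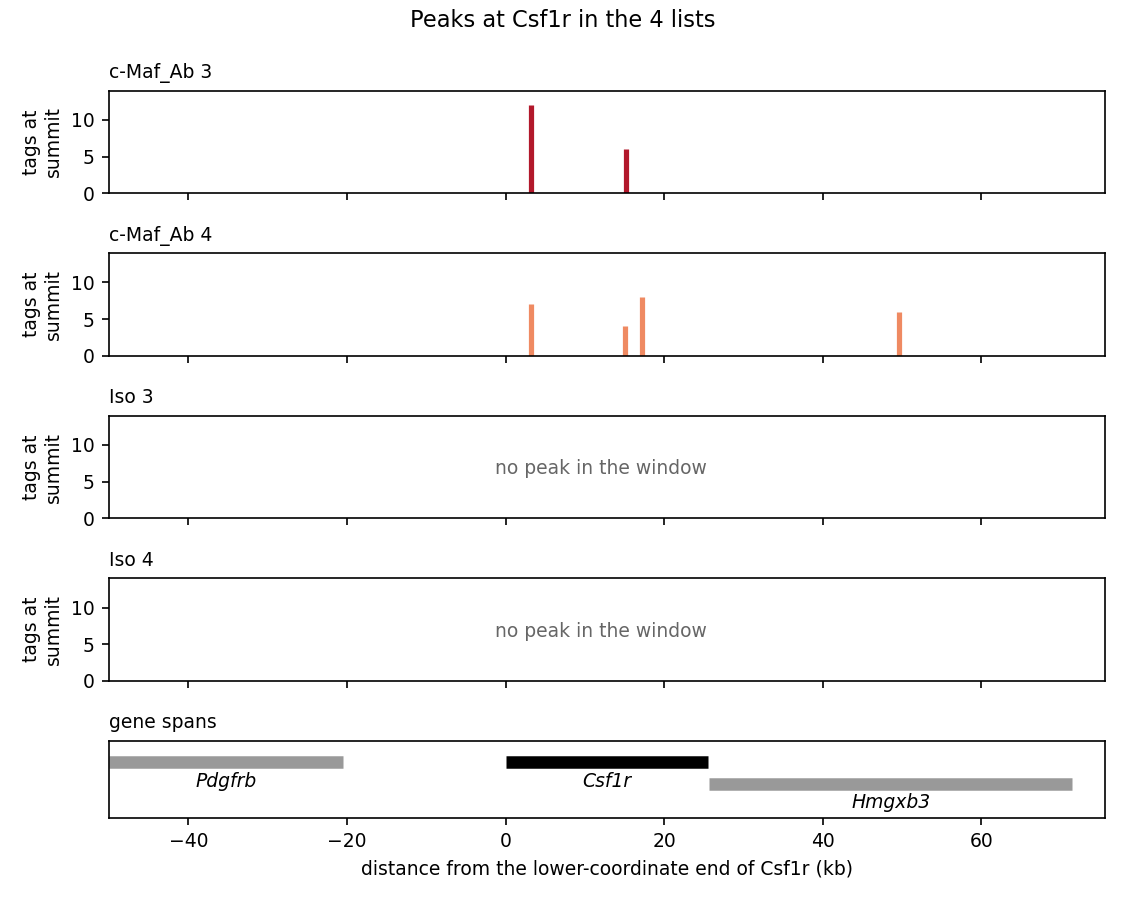
Peaks within 50 kb of Csf1r, 1 panel per list, with c-Maf_Ab above Iso. The x axis is the distance in kb from the lower-coordinate end of Csf1r, the height of each line is the number of tags at the peak summit, and the bars at the bottom are the spans of Pdgfrb, Csf1r and Hmgxb3. Both c-Maf_Ab lists have a line at 3.2 kb and another at 15.1 kb, and both Iso panels are empty.

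The strongest of the peaks was near the 5′ end of the gene. In c-Maf_Ab number 3 it ran from 61108616 to 61108932, a length of 317 bp against a list median of 63 bp, and had 12 tags at its summit (6.2 to 21.0), a fold enrichment of 7.20 and a −log10 q of 4.38. By p-value it stood at place 53 of 23434 in that list. Here and below, peaks of equal p-value all take the first of the places they share. In c-Maf_Ab number 4 the matching peak ran from 61108635 to 61108825, a length of 191 bp, and had 7 tags (2.81 to 14.4), a fold enrichment of 4.76 and a −log10 q of 0.41. It stood at place 2127 of 17620 in its own list, short of a q-value of 0.05. With ties counted, 12.7% of that list had a p-value as small or smaller. The second peak lay wholly within the first over 191 bp, and the summits were 17 bp apart. The counting intervals of the 2 libraries overlapped, and the difference in height between them was not tested.

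As background, mouse Csf1r lies behind Pdgfrb in the same orientation, which makes its lower-coordinate end the 5′ end. On that basis the shared peak began 3.04 kb downstream of the 5′ end, with its summits at 3.20 kb and 3.21 kb. No list had a peak over the 5′ end itself, in the 20.5 kb between Pdgfrb and Csf1r, or inside Pdgfrb, which encodes a related receptor tyrosine kinase. Exon boundaries, the position of FIRE and the position of any c-Maf site described by the study were not used here, so whether the peak falls on the second intron, on the enhancer or on such a site was not tested.

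The other region of Csf1r held by both c-Maf_Ab libraries was weaker and lay 11.7 kb further into the gene. In number 3 it ran from 61120655 to 61120744 with 6 tags (2.2 to 13.1) and a fold enrichment of 4.35. In number 4 it ran from 61120660 to 61120719 with 4 tags (1.09 to 10.2), the smallest height found in that list, and a fold enrichment of 3.21. Its summits were 31 bp apart. Another peak inside the gene, at 61122804 to 61122863, came from number 4 alone with 8 tags (3.45 to 15.8) and a fold enrichment of 4.45. It had more tags than the 7 of the number 4 peak near the 5′ end, but a smaller fold enrichment (4.45 against 4.76). This peak and those of the region shared by both libraries overlapped the span of Gm52352, a long non-coding RNA gene annotated within Csf1r. The sixth peak, also of number 4 alone, lay 24.1 kb beyond the 3′ end inside Hmgxb3, at 61155203 to 61155289, with 6 tags and a fold enrichment of 4.39.

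**Figure D2:**
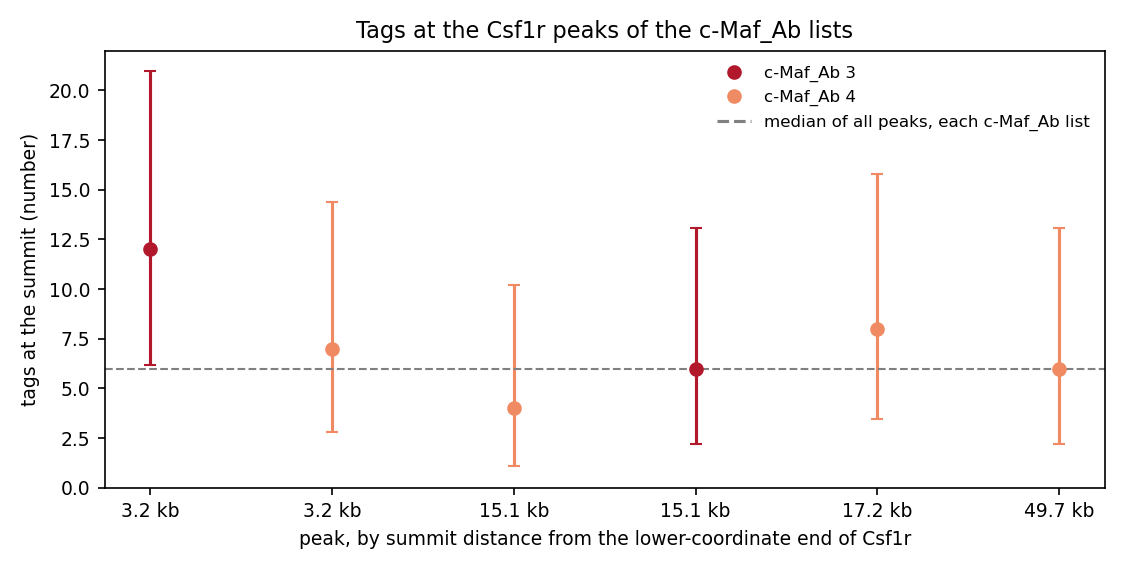
Tags at the summit of each of the 6 c-Maf_Ab peaks in the Csf1r window, ordered by summit distance from the lower-coordinate end of the gene. Points are tags, bars are exact 95% Poisson intervals, colours are the libraries and the dashed line marks 6 tags, the median of each c-Maf_Ab list. The peak of number 3 at 3.2 kb, with 12 tags, has an interval from 6.2 to 21.0 that lies just above the line, while the other 5 intervals cross it.

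The lack of isotype peaks at the shared regions can be read against the height an isotype peak would have needed. With the local input level that the c-Maf_Ab peaks imply, 0.541 to 0.756 scaled tags at the 4 summits, 4 tags were enough to pass the authors' p-value of 0.01 in either Iso library, provided they covered at least the fragment length. The shortest peaks of the Iso lists were 53 bp (number 3) and 56 bp (number 4). Smaller or narrower isotype signal would not appear in the lists.

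Regions held by both c-Maf_Ab libraries and neither Iso library numbered 491 in the genome, against 409 of both Iso libraries and neither c-Maf_Ab library. The order was the same at equal list lengths (391 against 160) and at 50% reciprocal overlap (313 against 247). It was also the same at p of 1e-05 or smaller (82 against 44) and at q of 0.05 or smaller (47 against 10). With summits within 200 bp counted as shared the order turned, with 572 against 609. The region at 3.04 kb had place 56 among the 491 by mean within-list rank of p, and the region at 15.08 kb had place 402. Within 50 kb of 1 of the 7 receptor genes, Csf1r, lay such a region, and the same was true of 3.17% of all protein-coding genes. The converse, a region held by both Iso libraries and neither c-Maf_Ab library, lay near 0 of the 7 and near 1.45% of all genes. No test of these counts was made, since with 2 libraries against 2 no permutation over libraries can give a p under 0.33.

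Genes most like Csf1r were those with at least 2 regions of both c-Maf_Ab libraries and neither Iso library, inside or within 5 kb, and no peak of either Iso list there. At least 2 such regions were found at 0.0594% of all genes (13 genes), and 0.0274% (6 genes, Csf1r among them) also had no isotype peak. The rule matches the pattern of Csf1r, so its own membership was fixed in advance. Ordered by the summed −log10 p of the weaker library, Slc7a8, an amino acid transporter gene on chromosome 14, came first with 11.44. It was followed by C1qc, a complement C1q chain gene on chromosome 4, with 10.47, and Adap2 on chromosome 11 with 8.54. Csf1r had 7.85, Tmem250-ps 7.39 and Med29, a Mediator subunit gene, 6.67. Each of the 6 had exactly 2 regions, in spans from 3.1 kb (C1qc) to 59.7 kb (Slc7a8).

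The other kinases of the class, Kit and Flt3, had no c-Maf_Ab peak inside the gene. Both had more isotype than c-Maf_Ab peaks in their windows, mostly from Iso number 3, whose list is the longest with 58732 peaks. The median of all genes was likewise 2 c-Maf_Ab and 3 isotype peaks. The smallest peaks of the Iso number 3 list had 3 tags, against 4 in the other lists. At equal list lengths (15568 peaks) Iso number 3 held 4 peaks in all member windows instead of 20. Among them was its peak inside Csf2ra, at place 13584, whose ties by p-value reached past the cut. Whether that peak stayed therefore depended on how ties were sorted, and so did the Iso number 3 share at equal list lengths. The order at Kit turned at these lengths, since all c-Maf_Ab peaks of Kit stayed. Of the isotype peaks of Kit, only those at places 1389 and 3474 (Iso number 3) and 467 (Iso number 4) stayed. The order at Flt3 held. Kit (chromosome 5, 75574987 to 75656722) had 3 peaks of c-Maf_Ab number 3 and 2 of number 4, against 7 of Iso number 3 and 1 of Iso number 4, so that the number 4 libraries alone gave the opposite order. All 5 c-Maf_Ab peaks were outside the gene, while 6 of the 8 isotype peaks were inside it. No c-Maf_Ab peak was shared, and the closest summits of the 2 c-Maf_Ab libraries were 16.1 kb apart. In Kit the isotype peaks inside the gene had 3 to 7 tags, with the highest, of Iso number 4, at 75632895 to 75632958.

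One Kit peak stood high in its list. In c-Maf_Ab number 3 a peak at 75567042 to 75567125 had 8 tags (3.45 to 15.8), a fold enrichment of 5.85 and a −log10 q of 1.72. It stood at place 309 of 23434, and with ties counted 1.76% of that list had a p-value as small or smaller. It lay 7.9 kb upstream of the Kit start. No other list had a peak there, and the nearest c-Maf_Ab number 4 peak to the start was 48.5 kb away, against 5.8 kb for Iso number 3. Of the 44 distinct peaks in all member windows, 2 had a q-value of 0.05 or smaller, namely this one and the number 3 peak of Csf1r at 3.04 kb. Both came from c-Maf_Ab number 3, which had 12 peaks in these windows. In the whole lists, 717 of 23434 and 505 of 17620 peaks passed this limit in c-Maf_Ab numbers 3 and 4. In Iso numbers 3 and 4, 244 of 58732 and 408 of 15568 did. The Kit promoter window of RefSeq (GRCm38.p6, chr5:75574737-75575036, plus strand) runs from 250 bases before to 50 after the start. It is shown because the Kit peak at place 309 lies upstream of it and no peak of any list overlaps it. The window holds no half-site.
Kit promoter: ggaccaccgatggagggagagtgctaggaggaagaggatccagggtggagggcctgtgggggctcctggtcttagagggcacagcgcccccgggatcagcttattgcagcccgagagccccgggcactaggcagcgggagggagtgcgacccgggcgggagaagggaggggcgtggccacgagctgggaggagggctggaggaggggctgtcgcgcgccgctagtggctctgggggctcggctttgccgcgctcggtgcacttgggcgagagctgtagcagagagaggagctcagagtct

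Flt3 (chromosome 5, 147330741 to 147400489) had 2 peaks of c-Maf_Ab number 3 and 0 of number 4, against 6 of Iso number 3 and 1 of Iso number 4. The c-Maf_Ab peaks lay 13.2 kb and 38.5 kb beyond the lower-coordinate end, the 3′ end of this minus-strand gene, with 6 and 4 tags. The first of them fell inside the neighbouring gene Urad. Of the 7 isotype peaks 4 were inside Flt3, with 3 to 6 tags. The start of Flt3 was 83.0 kb from the nearest c-Maf_Ab number 3 peak and 138.7 kb from the nearest of number 4, against 50.2 kb for Iso number 3 and 19.8 kb for Iso number 4.

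The GM-CSF receptor alpha gene Csf2ra (chromosome 19, 61217191 to 61228461) was the member with the nearest miss. It had 3 peaks of c-Maf_Ab number 3 and 2 of number 4, against 3 of Iso number 3 and 1 of Iso number 4. A pair of these c-Maf_Ab peaks lay side by side 45.5 kb and 45.4 kb beyond the 3′ end of the gene, at 61171587 to 61171703 in number 3 and at 61171714 to 61171773 in number 4. Each had 5 tags (1.62 to 11.7), with fold enrichments of 3.89 and 4.01, and 10 bases separated them, so they did not count as shared. Their summits were 50 bp apart, and with summits within 200 bp counted as shared Csf2ra would join Csf1r. The span of the pseudogene Gm6020 covered both peaks, and whether tags there also match other copies was not tested.

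Closer to Csf2ra, c-Maf_Ab number 3 had a peak 0.9 kb beyond the 3′ end with 6 tags, at 61216182 to 61216244, and Iso number 3 had one with 5 tags just inside the gene, at 61217207 to 61217287. On the other side, 36.0 kb away, Iso number 4 had the highest peak of all member windows, at 61264420 to 61264529, with 21 tags (13.0 to 32.1). Its fold enrichment was only 2.40, with a local input of 8.0 scaled tags.

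The beta chain genes Csf2rb and Csf2rb2 lie 20.1 kb apart on chromosome 15 and share much of their windows. Csf2rb (78325800 to 78351001) and Csf2rb2 (78282507 to 78305721) had 1 c-Maf_Ab number 3 peak between them, at 78292314 to 78292376 inside Csf2rb2, with 6 tags (2.2 to 13.1) and a fold enrichment of 3.41. c-Maf_Ab number 4 had no peak in either window, and its nearest lay 146.7 kb from Csf2rb and 119.9 kb from Csf2rb2. Iso number 3 had 1 peak in each window, with 4 tags near Csf2rb and 3 near Csf2rb2, and Iso number 4 had 0. These genes are close copies, and each holds a miRNA gene of the same family. The hairpins are printed because they show how far the copies can agree over the length of a read. Capitals mark the first 50 bases, which is the tag size in the file headers. Mir7676-1 (chr15:78284788-78284849, minus strand) is in Csf2rb2 and Mir7676-2 (chr15:78348599-78348660, plus strand) in Csf2rb, both from RefSeq, GRCm38.p6.
Mir7676-1: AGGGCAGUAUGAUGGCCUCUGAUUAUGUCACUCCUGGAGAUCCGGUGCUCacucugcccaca
Mir7676-2: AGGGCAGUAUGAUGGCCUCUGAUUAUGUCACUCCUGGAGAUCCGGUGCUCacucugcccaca

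The 62-base hairpins differed at 0 positions. A tag that lies wholly inside one of them could therefore not be assigned to Csf2rb or Csf2rb2, and the authors' treatment of tags with several matches is not stated in the labels or headers. No list had a peak over either hairpin. Peaks, and the lack of them, in stretches that agree between the copies are uncertain for that reason.

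The G-CSF receptor gene Csf3r (chromosome 4, 126023441 to 126044975) had 1 peak of c-Maf_Ab number 3 and 0 of number 4, against 2 of Iso number 3 and 1 of Iso number 4. The c-Maf_Ab peak was inside the gene at 126042174 to 126042236, 17.5 kb downstream of the start, with 5 tags (1.62 to 11.7) and a fold enrichment of 3.71. The isotype peaks were all outside, and the highest, of number 4, had 7 tags at 125982557 to 125982627. Csf3r was the only one of the 5 members with a promoter window in RefSeq's table whose window held the half-site TGCTGA on either strand, 230 bases before the start. This half-site occurs in 19.5% of all 32851 promoter windows, and the full Maf recognition element of half-sites facing each other, with 1 or 2 spacer bases, in 2 windows for each spacing and in no member's. The Csf3r window (chr4:126024409-126024708, plus strand, GRCm38.p6) is printed with the half-site in capitals.
Csf3r promoter: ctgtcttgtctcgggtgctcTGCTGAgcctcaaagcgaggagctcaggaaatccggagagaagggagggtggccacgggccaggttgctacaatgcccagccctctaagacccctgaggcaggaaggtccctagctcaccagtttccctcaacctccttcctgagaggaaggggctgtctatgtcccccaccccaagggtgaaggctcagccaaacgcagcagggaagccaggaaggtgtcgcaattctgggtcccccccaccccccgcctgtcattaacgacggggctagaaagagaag

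No list had a peak over any of the 6 promoter windows of these 5 members (Csf2ra, Csf2rb2, Csf3r, Flt3 and Kit). Such overlaps were rare throughout, with 0.578% and 0.353% of all promoter windows overlapped in c-Maf_Ab numbers 3 and 4, and 0.743% and 0.225% in Iso numbers 3 and 4. At such shares, no peak over 6 windows is close to the background. The match of a half-site describes the sequence and does not mark a bound site.

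**Figure D3:**
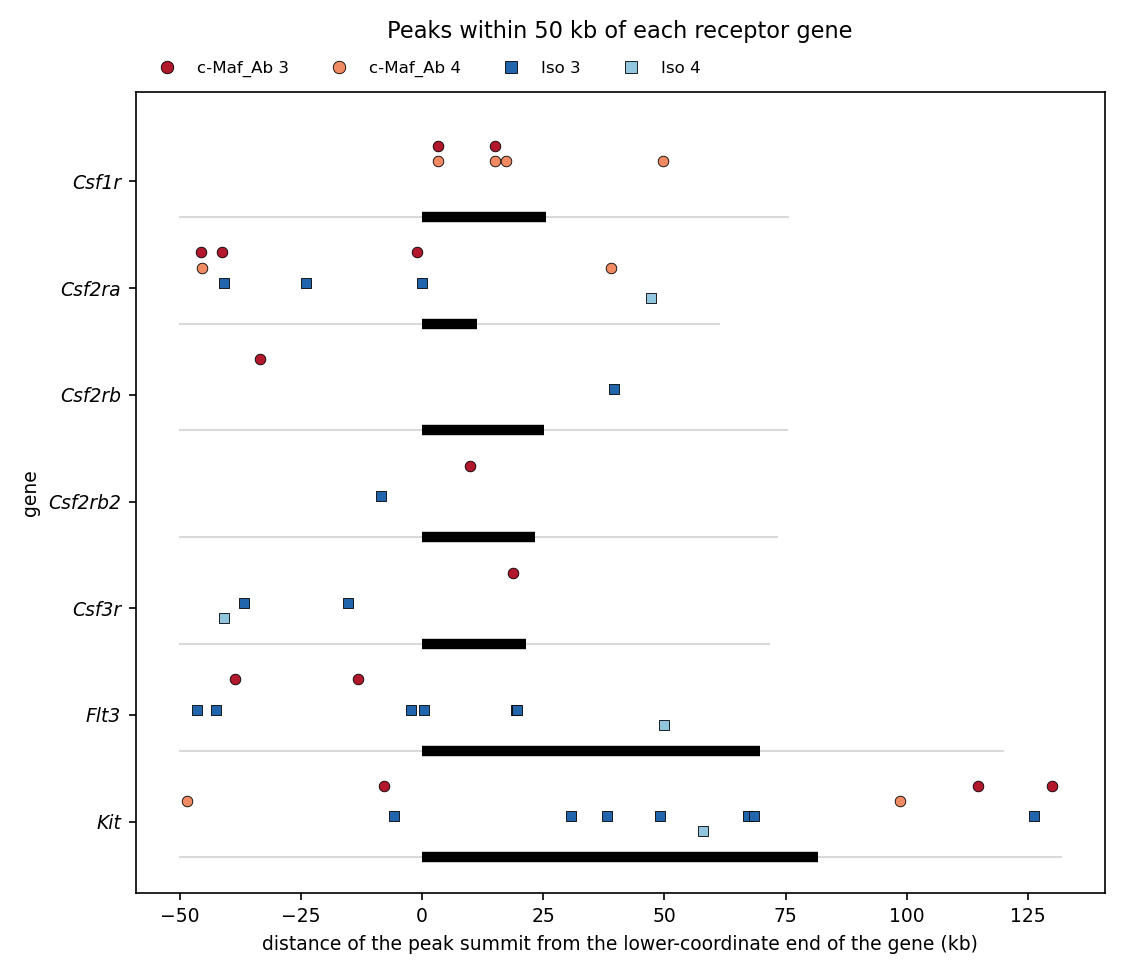
Peak summits within 50 kb of each of the 7 genes. The x axis is the distance in kb from the lower-coordinate end of each gene, black bars are gene spans, grey lines are the windows, circles are c-Maf_Ab peaks and squares are Iso peaks. Each list is drawn at its own height. Circles of both colours are stacked inside Csf1r and also 45 kb to the left of Csf2ra, where the peaks do not overlap. The spans of Kit and Flt3 hold squares and no circles.

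Taken over the 7 genes, c-Maf_Ab number 3 had a peak within 50 kb of 7 and c-Maf_Ab number 4 of 3, against 6 for Iso number 3 and 4 for Iso number 4. Of all protein-coding genes, 66.7% and 53.8% had one in c-Maf_Ab numbers 3 and 4, and 85% and 47.3% in Iso numbers 3 and 4. Inside the gene, 3 and 1 members had a c-Maf_Ab peak (numbers 3 and 4), and 3 and 2 had an Iso peak. The shares of all genes were 23.1% and 17.6% for c-Maf_Ab, and 33.7% and 15.3% for Iso. The median member had 2 c-Maf_Ab peaks and 3 Iso peaks in its window with both libraries added up, the same medians as over all genes. Among the 7 members, Csf1r alone had overlapping peaks of both c-Maf_Ab libraries, and it alone had no isotype peak in its window.

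**Figure D4:**
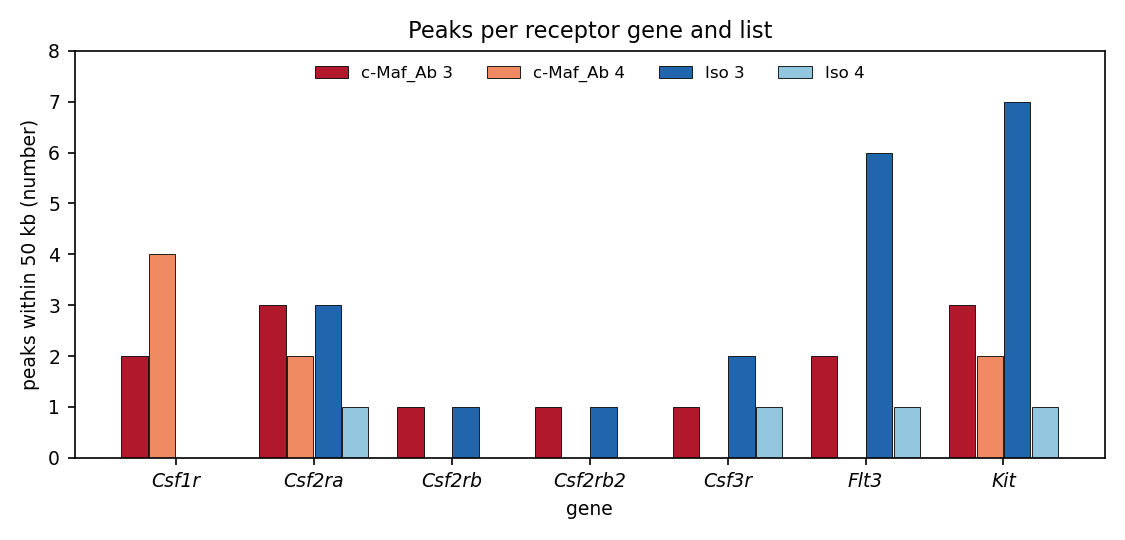
Number of peaks within 50 kb of each gene in each list, with c-Maf_Ab bars left of Iso bars. Csf1r has 2 and 4 c-Maf_Ab peaks and no Iso bar, while Kit has 3 and 2 c-Maf_Ab peaks against 7 and 1 Iso peaks.

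The merged windows of the 7 genes cover 878.4 kb and held 12 of the 23434 peaks of c-Maf_Ab number 3 (0.0512%, exact 95% interval 0.0265% to 0.0894%) and 8 of the 17620 of c-Maf_Ab number 4 (0.0454%, 0.0196% to 0.0894%). They held 20 of the 58732 peaks of Iso number 3 (0.0341%, 0.0208% to 0.0526%) and 4 of the 15568 of Iso number 4 (0.0257%, 0.007% to 0.0658%). The c-Maf_Ab shares were higher than the Iso shares in both numbers, but all 4 intervals overlapped. Without the Csf1r window the c-Maf_Ab shares were 0.0427% (number 3) and 0.0227% (number 4), against 0.0341% and 0.0257% for Iso, so the order turned in number 4. The means were 0.0483% for c-Maf_Ab and 0.0299% for Iso (exact permutation test over libraries, two-sided, p = 0.33, the smallest possible). The difference of 0.0184 percentage points fell to 0.00281 without the Csf1r window and to 0.00129 at p of 1e-05 (exact permutation p = 1.0 for both).

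Ligands, partner receptors and signalling genes of these pathways were counted in the same way. Of 47 such genes 1, Fyn, had a region of both c-Maf_Ab libraries and neither Iso library inside or within 5 kb (2.13%, against 1.22% of all genes), and 1, Pdgfra, had one of both Iso libraries and neither c-Maf_Ab library (2.13%, against 0.585%). A single gene of 47 is too few to set either share apart from that of all genes. Fyn encodes a Src family kinase and is long, at 195.6 kb. Its region (chromosome 10, 39458992 to 39459185) had 7 tags and a fold enrichment of 2.60 in number 3, and 6 tags and 3.46 in number 4, and the −log10 q was 0.0 in both. The Fyn region was lost (0 genes of 47) at p of 1e-05, at q of 0.05, at equal list lengths and at 50% reciprocal overlap. In all, Fyn had 2 and 6 c-Maf_Ab peaks (numbers 3 and 4), against 11 and 1 Iso peaks, inside or within 5 kb. Pdgfra, a receptor of the same kinase class upstream of Kit on chromosome 5, had its isotype region at 75187583 to 75187671, with 4 and 5 tags.

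By list, 0 of 8 ligand genes, 0 of 10 related and partner receptors, 1 of 21 signalling genes and 0 of 8 inhibitors had a c-Maf_Ab region of that kind. Without asking for overlap, 3 of the 47 had a peak of both c-Maf_Ab libraries and of neither Iso library inside or within 5 kb (6.38%, against 1.73% of all genes), a count made after the values were seen. They were Il3, the interleukin-3 gene, Jak1, a Janus kinase gene, and Inpp5d, which encodes the phosphatase SHIP1. At Il3, a gene of 2.2 kb on chromosome 11, the peaks lay 4.7 kb apart, with 5 tags in number 3 inside the gene and 7 tags in number 4 outside it. The nearest summits of the 2 libraries were 97.8 kb apart in Jak1 and 21.6 kb apart in Inpp5d. These are long genes, of 113.3 kb (Jak1) and 100.2 kb (Inpp5d), and the share of all genes was not matched for length. With the antibodies exchanged there were 2 of 47, Plcg2 and Ptpn6 (4.26%, against 3.04% of all genes).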

How the data were processed

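Peaks were called in each library separately with MACS2 2.1.1.20160309 at a p-value of 0.01, with 1 tag kept per position and the number 4 input as control, per the file headers. The mm10 build is named in the submitters' processing notes, and no aligner is named in the labels or headers. The deposited pileup is a signal in tags scaled to the input, and p- and q-values are deposited as −log10. The deposited fold is the ratio of pileup to local input after a tag is added to each. Dividing pileup by the scaling gave whole tags within 0.02 for 100% of peaks in each list. Positions are in bp, as deposited by the authors.

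Overlapping peaks of the 4 lists (minimum 1 bp) were joined into regions with Python 3.11.15 and pandas 2.3.3, and the joining was tested on simulated lists. Distances are to RefSeq gene spans, and promoter strands come from RefSeq's promoter table. The members, the gene lists and the rules for named genes were chosen with earlier results of these data known. Named genes were the 7 members, listed genes with a shared region within 5 kb, genes at shared regions, and up to 5 genes most like Csf1r. Il3, Jak1, Inpp5d, Plcg2 and Ptpn6 fall outside this rule and were chosen after their values were seen. P-values over libraries come from rearranging the labels of these libraries. They do not measure the spread between libraries. Alternatives were other p- or q-value limits, equal list lengths, other overlap rules, other windows and each library left out.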

Additional observations from a re-analysis of the deposited data

How the results depend on the processing

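At a q-value of 0.05 or smaller no member had a region of both c-Maf_Ab libraries and neither Iso library (0 members, 0 regions at Csf1r), because the number 4 peak at 3.04 kb does not pass it. At p of 1e-05 or smaller and at equal list lengths Csf1r kept 1 of its 2 regions, and with summits within 200 bp 2 members had one, Csf1r and Csf2ra. The pathway count of 1 became 0 at p of 1e-05, at q of 0.05, at equal list lengths and at 50% reciprocal overlap, and 2 within 50 kb, where Pdgfrb joined through the Csf1r regions. With 1 library left out, members with a c-Maf_Ab region ranged from 1 to 7, those with an Iso region from 0 to 6, regions at Csf1r from 2 to 4 and pathway genes from 1 to 12, since a lone list is not filtered by a replicate. Without c-Maf_Ab number 3 the counts were 3 members, 4 regions at Csf1r and 10 pathway genes, and without number 4 they were 7, 2 and 12. Without Iso number 3, 4 members had an Iso region, and without Iso number 4, 6 did. The other alternatives, windows of 5 kb and 10 kb included, left the counts within 1.5 times. The c-Maf_Ab minus Iso share of peaks in member windows, 0.0184 percentage points, was 0.0257 at equal list lengths, 0.00129 at p of 1e-05 and 0.00281 without the Csf1r window, and leaving out 1 library gave 0.0143 to 0.0226. With the number as a replicate block it was 0.0184 (exact sign-flip permutation, p = 0.5, the smallest possible), an alternative chosen after seeing the data, as were leaving out libraries or the Csf1r window for this share. No label says that a number marks a shared animal, and the block could not be applied to the counts, which come from no test.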
